A study of Mus musculus with 6 samples.

Results

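The genes described here are 5 STAT transcription factor genes (Stat2, Stat3, Stat4, Stat5a and Stat6) and 4 SOCS family feedback genes (Socs1, Socs2, Socs3 and Cish). They were taken by symbol from the gene counts of blood monocytes, and all 9 were found among 56832 gene names. Polyadenylated RNA was sequenced from monocytes of mouse peripheral blood in 6 libraries. Mice of the thrombocytopenic group (3 libraries) were PF4cre-iDTR: Cre driven by the Pf4 promoter, which is active in the megakaryocytes that form platelets, turns on a diphtheria toxin receptor and makes those cells sensitive to the toxin. Pf4 RNA was abundant in these libraries (values below), but whether the promoter was also active in the monocytes was not tested. Control mice (3 libraries) were WT, that is, wild type. Diphtheria toxin is the labelled treatment of both groups, so genotype and platelet state cannot be told apart. The labels name no strain, age, time after toxin or pooling of animals. The comparison asks how monocyte RNA differs when platelets are depleted.

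STAT proteins wait in the cytoplasm until a cytokine receptor and its JAK kinases phosphorylate them, after which they pair, enter the nucleus and switch on genes. SOCS and CIS genes are among the genes they switch on, and their products bind the receptors or JAKs and dampen the signal, so these RNAs are often read as traces of recent cytokine exposure. In monocytes, STAT2 carries type I interferon signals together with IRF9, and STAT3 serves interleukin 6 and interleukin 10. STAT5 serves GM-CSF and related factors there, and STAT6 serves interleukins 4 and 13. STAT4 is best known for serving interleukin 12 in T and NK cells. SOCS1 mainly restrains interferon receptors and SOCS3 the receptors that use the gp130 chain, while CIS (gene Cish) and SOCS2 act mostly on receptors that signal through STAT5.

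Promoter sequence shows where STAT motifs lie in these genes. In RefSeq promoter windows of build GRCm38.p6, each reaching from 250 bases before to 50 bases after an annotated start, 8 of the 9 genes, all but Socs2, had an entry, with 10 windows in all. Both strands were searched for 3 motifs: the GAS motif TTCNNNGAA, bound by most STAT pairs, the spaced form TTCNNNNGAA, preferred by STAT6, and an interferon response element core, GAAANNGAAA. The GAS motif lay in 8.3% of 32851 windows of that length, the spaced form in 6.95% and the interferon core in 3.44%. The stretches that hold the matches are shown 5′ to 3′ on the strand of the gene, with each match in capitals. They come from Socs1 at chr16:10785587-10785646 (minus strand), Stat2 at chr10:128270258-128270317 (plus), the second start of Stat4 at chr1:52008120-52008179 (plus), Socs3 at chr11:117969487-117969546 (minus) and Cish at chr9:107296659-107296678 (plus).
Socs1: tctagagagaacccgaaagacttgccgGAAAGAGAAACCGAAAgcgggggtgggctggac
Stat2: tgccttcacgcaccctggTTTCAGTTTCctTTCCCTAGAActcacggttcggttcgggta
Stat4: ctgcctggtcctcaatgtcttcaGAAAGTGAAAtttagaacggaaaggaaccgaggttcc
Socs3: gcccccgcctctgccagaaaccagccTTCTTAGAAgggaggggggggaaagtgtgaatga
Cish: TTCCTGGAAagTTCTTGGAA

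Socs1 held 2 overlapping interferon cores, beginning 83 and 77 bases before its start. Stat2 held an interferon core on the reverse strand 222 bases before its start, followed by a spaced GAS motif at 210 bases. The second start of Stat4 had an interferon core at 97 bases. Socs3 had a GAS motif 154 bases before its start, and Cish had a pair of them beginning at bases 1 and 12 of the annotated transcript. Windows of Stat3, Stat5a, Stat6 and the first start of Stat4 held none of these letters. A match describes the sequence only and is no evidence of binding.

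**Figure D1:**
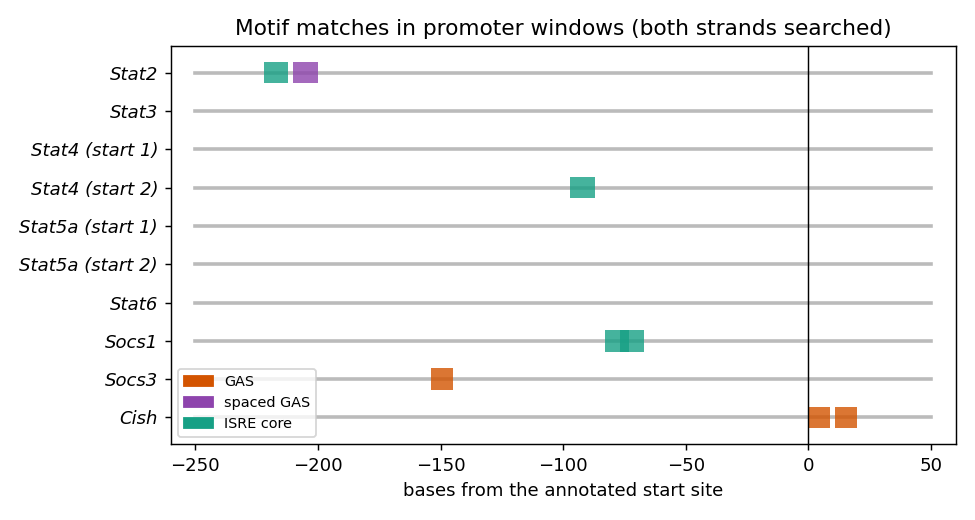
Motif matches in the 10 promoter windows (rows), drawn by distance from the annotated start in bases. Colours mark the GAS motif, its spaced form and the interferon response element core. Interferon cores lie before the starts of Socs1, Stat2 and the second start of Stat4, and GAS motifs lie in Socs3 and Cish.

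The libraries held 24842319 to 37552029 counts. Replicate libraries differed beyond sampling noise (chi-square of 1.91 to 3.27 per degree of freedom), so none was treated as a copy. The labels do not tie them to separate animals, and p-values therefore reflect only how these libraries vary, and that variation may be technical. The toxin receptor transgene was not analysed here. All 16 monocyte markers had counts, summing to 25881 to 26151 CPM (counts per 1000000) in the thrombocytopenic and 22978 to 23408 CPM in the control libraries. Of them, 9 were called higher and 5 lower, against 22.4% and 22.7% of all tested genes. B cell markers summed to 14.3 to 16.6 against 16.3 to 18.1 CPM, most of it from Ighm, without which the sums were 2.53 to 2.74 against 6.20 to 6.84 CPM. Cd22 carried most of that drop, at a mean of 1.04 against 4.84 CPM. Ighm itself was called higher, and Cd79b was not called (means 1.34 against 1.39 CPM). Neutrophil markers summed to 515 to 523 against 385 to 404 CPM, but without Mmp8, Mmp9 and Csf3r the direction of the means turned, with overlapping ranges of 9.60 to 14.3 against 13.4 to 15.7 CPM. Platelet markers also summed higher in the thrombocytopenic libraries, at 1221 to 1287 against 1014 to 1059.5 CPM. That sum was carried by Pf4 and Ppbp, which were both higher (log2 fold changes 0.24 and 0.66), and without them it turned to 1.74 to 2.99 against 9.74 to 11.2 CPM. Pf4, the gene whose promoter drives the Cre, stood at means of 1094 CPM in the thrombocytopenic and 924 CPM in the control libraries. Which cells this RNA came from was not tested.

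Monocytes of thrombocytopenic mice carried more Socs3 RNA and less RNA of Stat2, Stat4, Socs1 and Socs2. Socs3, the most abundant of the feedback genes, was 1.37-fold higher, while Socs2 was 2.32-fold lower, Stat4 1.58-fold lower, Socs1 1.16-fold lower and Stat2 1.13-fold lower. Stat3, Stat5a, Stat6 and Cish did not pass the test. All 9 genes passed the filter on low counts. With the quasi-likelihood test of edgeR and a threshold of 0.05 on the adjusted p, 5 of the 9 (55.6%) were called, against 45.1% of the 12488 genes tested. The total of called members is thus near the background. By direction, the 1 higher gene (11.1%) stands beside 22.4% of all tested genes higher, and the 4 lower genes (44.4%) beside 22.7% lower. With 9 genes, this split by direction was not tested. The groups did not overlap for 6 of the 9, against 51.3% of all tested genes. The members' median log2 fold change was -0.18, against -0.00077 over all genes tested. In these bulk libraries, fewer cells of a type and less RNA per cell cannot be told apart.

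**Figure D2:**
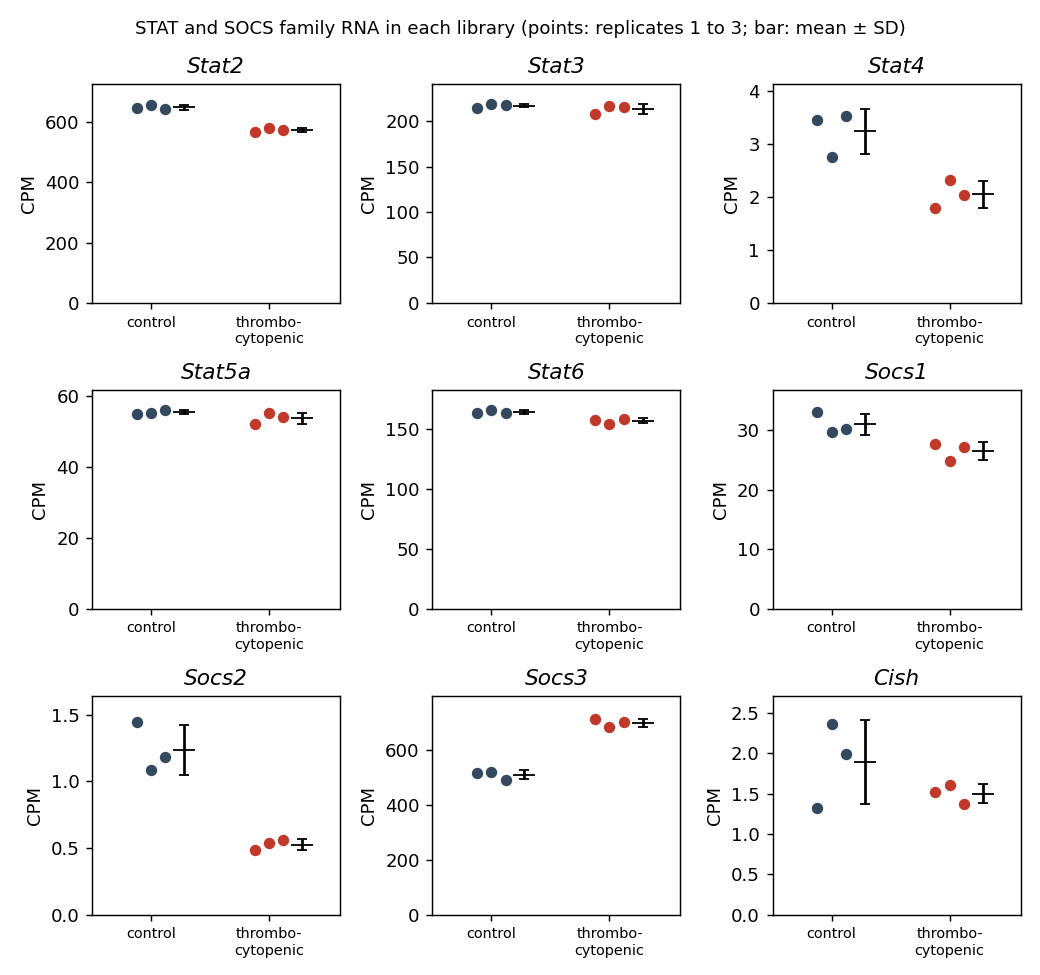
CPM of each of the 9 genes (vertical axes, starting at 0) in the 3 control and 3 thrombocytopenic libraries, with the mean and SD beside the points. Socs3 lies higher and Stat2, Stat4, Stat6, Socs1 and Socs2 lower in every thrombocytopenic library, while the points of Stat3, Stat5a and Cish overlap.

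Stat2, the STAT partner of IRF9 in type I interferon signalling, was at 569, 580 and 573 CPM in thrombocytopenic replicates 1 to 3 and at 646, 657 and 643 CPM in control replicates 1 to 3. Every thrombocytopenic library was lower than every control library, by more than the spread within either group. The means were 574 ± 5.61 and 649 ± 7.25 CPM (SD, n = 3 in each group), a log2 fold change of -0.18 (SE 0.025, edgeR adjusted p = 2.39e-08). That is 11.6% lower, a change larger in size than that of 55.1% of the genes tested. Its partner gene Irf9 (named after seeing its values) stood at 151 ± 2.97 against 149 ± 1.72 CPM and was not called (SD, n = 3 in each group; edgeR adjusted p = 0.655).

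Stat4, best known as the interleukin 12 responder of T and NK cells, was present at low counts, with 67, 69 and 73 in the thrombocytopenic and 86, 99 and 101 in the control libraries. Scaled to depth these were 1.79, 2.31 and 2.04 CPM against 3.45, 2.75 and 3.52 CPM, and the groups did not overlap. The log2 fold change was -0.66 (SE 0.16, edgeR adjusted p = 0.000552). In a gene annotation of build GRCm38 (GENCODE M21), Stat4 shares 1033 exon bases with Gm28177 on the same strand, so its counts are uncertain. The sum of T and NK cell markers was lower beside it, at 2.91 to 3.41 CPM against 4.12 to 4.47 CPM. Of these markers, 10 of 17 had any count, and 2 of the 4 tested were lower, beside 22.7% of all tested genes. The lower genes were Tcf7, at means of 0.093 against 0.54 CPM, and Cd8a, at 0.26 against 0.73 CPM. Cd247 (2.11 against 2.15 CPM) and Lck (0.47 against 0.55 CPM) were not called. The defining genes Cd3d, Cd3e, Cd3g, Bcl11b, Ncr1, Nkg7 and Prf1 had 0 counts in all 6 libraries, which allows up to 0.016 CPM over the 6. Dendritic cell markers moved with Stat4 too, with 6 of 8 tested members lower, beside 22.7% of all tested genes. The dendritic sum, without the abundant Bst2 and Ccr7, was 11.1 to 13.3 against 16.7 to 19.9 CPM (237 to 244 against 319 to 333 CPM with them). The part of T, NK and dendritic cells in the Stat4 difference was not tested.

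Stat3, the mediator of interleukin 6 and interleukin 10 signals, stood at 207, 217 and 216 CPM in the thrombocytopenic and 215, 219 and 217 CPM in the control libraries. The groups overlapped, and the log2 fold change of -0.025 had a 95% interval of -0.082 to 0.031 (edgeR adjusted p = 0.501). Stat5a, a mediator of GM-CSF signals, stood at 52.0, 55.0 and 54.0 against 54.9, 55.2 and 55.9 CPM. Its interval reached from -0.13 to 0.034 (log2 fold change -0.046, edgeR adjusted p = 0.372). Stat3 and Stat5a are neighbours on opposite strands and share 72 exon bases in the same annotation.

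Stat6, the interleukin 4 and 13 responder, was at 158, 154 and 158 CPM in the thrombocytopenic libraries and at 163, 166 and 163 CPM in the control libraries. The groups did not overlap, but the difference missed the threshold (log2 fold change -0.063, 95% interval -0.12 to -0.0045, edgeR adjusted p = 0.0738). It passed under other scalings, with a log2 fold change of -0.087 under upper quartile scaling (adjusted p = 0.0121) and of -0.069 on library totals (adjusted p = 0.0497). Stat6 shares 40 exon bases with Nab2 on the other strand.

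Socs3, the feedback inhibitor of gp130 receptors, was at 713, 683 and 702 CPM in the thrombocytopenic libraries and at 517, 521 and 491 CPM in the control libraries. The lowest thrombocytopenic library lay well above the highest control library. The means were 699 ± 15.5 and 509 ± 16.3 CPM (SD, n = 3 in each group), and the log2 fold change was 0.46 (SE 0.026, 95% interval 0.40 to 0.51, edgeR adjusted p = 1.65e-21). Socs3 ranked 300 of 12488 genes by p, and its change was larger in size than that of 83.7% of them.

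Socs1, the feedback inhibitor of interferon receptors, moved the other way, at 27.7, 24.8 and 27.1 CPM in the thrombocytopenic against 33.1, 29.8 and 30.2 CPM in the control libraries. The groups did not overlap, though the highest thrombocytopenic and lowest control libraries were close. The means were 26.5 ± 1.51 and 31.0 ± 1.79 CPM (SD, n = 3 in each group), with a log2 fold change of -0.22 (SE 0.053, edgeR adjusted p = 0.000657).

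Socs2, a feedback inhibitor of growth hormone and other STAT5-using receptors, was close to the limit of detection, with 18, 16 and 20 counts in the thrombocytopenic and 36, 39 and 34 in the control libraries. These were 0.48, 0.54 and 0.56 CPM against 1.45, 1.08 and 1.18 CPM, without overlap. Its log2 fold change of -1.22 was the largest in size of the 9, with a wide 95% interval of -1.77 to -0.66 (SE 0.28, edgeR adjusted p = 0.000257). Cish, another feedback gene of STAT5, had 57, 48 and 49 counts against 33, 85 and 57. Control replicate 1, at 1.33 CPM, was the lowest of all 6 libraries, and control replicates 2 and 3, at 2.36 and 1.99 CPM, were the highest. The log2 fold change of Cish was -0.37 (95% interval -0.78 to 0.043) and did not pass the test (edgeR adjusted p = 0.145), but without control replicate 1 it was -0.55 and passed (edgeR adjusted p = 0.0297). Cish shares 479 exon bases with Gm17041 and 261 with Gm17040, both on the other strand, and its counts are uncertain if strand was not used.

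Basophil and mast cell markers were lower in the thrombocytopenic libraries, as Socs2 was, with 6 of 7 tested members lower. Among all tested genes, 22.7% were lower. Without Hdc, which was abundant in both groups, 9 of 11 markers had a count and their sum was 1.32 to 2.24 CPM in the thrombocytopenic and 10.1 to 11.2 CPM in the control libraries. With Hdc the sums were 93.4 to 99.5 and 101 to 104 CPM. Mcpt4 and Tpsb2 were at 0 in all libraries. The part of these cells in the Socs2 and Cish values was not tested.

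**Figure D3:**
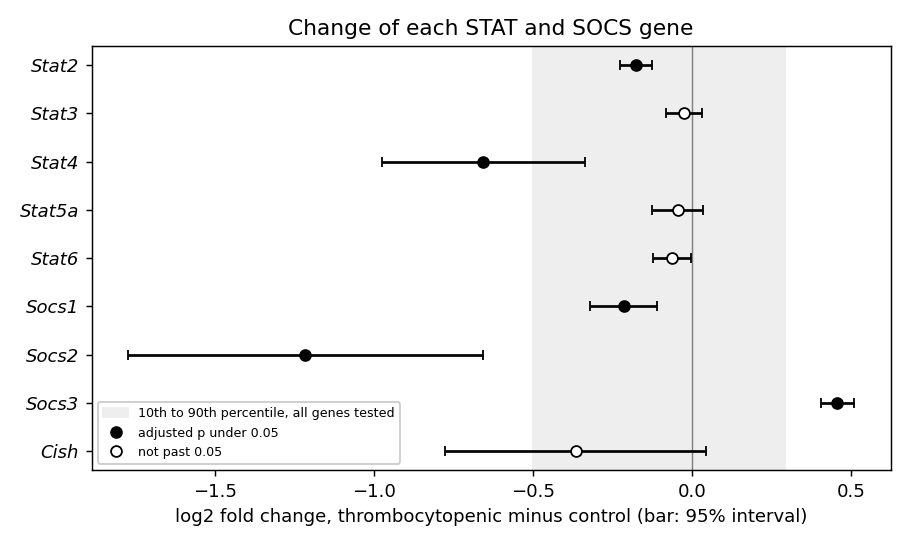
Log2 fold change of each of the 9 genes, thrombocytopenic minus control (horizontal axis), with 95% intervals and filled points for an adjusted p under 0.05. The grey band holds the 10th to 90th percentile of all genes tested, -0.50 to 0.29. Socs3 lies above the band, Stat4 and Socs2 lie below it, and the intervals of the low-count genes Stat4, Socs2 and Cish are the widest.

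Levels of the 9 genes were compared per kilobase of annotated exon, on GENCODE M21 gene models that may differ from those of the authors. Socs3 was highest in both groups, at 242 CPM per kilobase in the thrombocytopenic and 176 in the control libraries. Stat2 followed at 96.9 and 109, then Stat6 at 35.6 and 37.2 and Stat3 at 22.4 and 22.8 CPM per kilobase. Socs1 stood at 9.12 and 10.7 and Stat5a at 7.52 and 7.76 CPM per kilobase. At the bottom were Stat4 at 0.53 and 0.84, Cish at 0.23 and 0.29 and Socs2 at 0.055 and 0.13 CPM per kilobase. No neighbours in this order overlapped in their ranges over the 6 libraries. The order was the same in both groups.

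Ratios of raw counts within a library need no scaling, and 6 were computed, chosen after the values were seen. With 3 against 3 libraries a two-sided exact permutation test cannot go below 0.1. The Socs3 to Socs1 ratio was 25.8, 27.5 and 25.9 in the thrombocytopenic and 15.6, 17.5 and 16.3 in the control libraries. The groups did not overlap (exact permutation p = 0.1, adjusted p = 0.15 over the 6 ratios). This follows from the opposite changes of the 2 genes already described and adds no separate evidence. Socs3 to Stat3 was 3.28 ± 0.146 against 2.35 ± 0.079 and Stat2 to Irf9 was 3.81 ± 0.112 against 4.36 ± 0.063 (SD, n = 3 in each group, exact permutation p = 0.1 and adjusted p = 0.15 for each). Socs3 to Socs2 was 1336 ± 125 against 418 ± 62.0, with the same p. Socs1 to Stat2 was 0.0462 ± 0.0031 against 0.0478 ± 0.0030 (SD, n = 3, exact permutation p = 0.6). Socs3 to Ptpn6, the gene of the phosphatase SHP-1, was 1.06 ± 0.020 against 1.03 ± 0.029 (SD, n = 3, exact permutation p = 0.3).

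**Figure D4:**
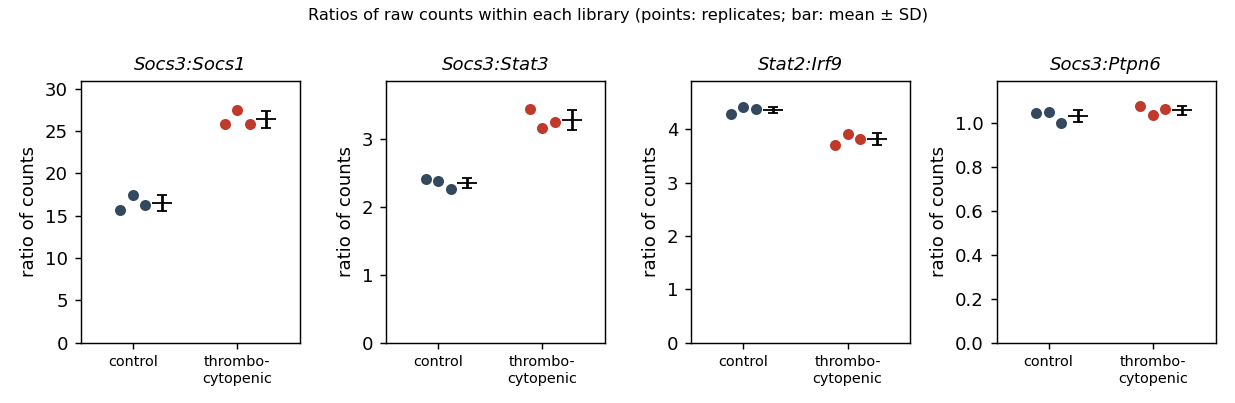
Ratios of raw counts (vertical axes, starting at 0) in each library for 4 gene pairs, with mean and SD. Socs3:Socs1 and Socs3:Stat3 are higher and Stat2:Irf9 lower in every thrombocytopenic library, while the points of Socs3:Ptpn6 overlap.

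The other genes of the pathway are given by list, each beside the 45.1% of all tested genes that were called (22.4% higher and 22.7% lower) and the median of -0.00077 over all of them. Among ligands of JAK-STAT receptors, 12 of 18 genes could be tested, 6 were higher and 4 lower (83.3% called), and their median log2 fold change was 0.26. Il6, a cytokine that signals through STAT3, rose by 0.88 on the log2 scale, Ebi3, a subunit of interleukin 27, by 0.76 and Csf3, the gene of G-CSF, by 1.13. Il12b, a subunit of the STAT4-activating interleukin 12, fell by 0.39. Of other ligands of gp130 receptors, Il27 rose by 0.20, while Osm and Lif fell by 0.66 and 0.64. In the receptor list, Il6ra fell by 0.26 and Il6st, the gene of gp130, was not called (edgeR adjusted p = 0.804). Il27, Osm, Lif, Il6ra and Il6st were named after seeing their values. Of the untested ligands, named after seeing their values, Ifng had no count in any library, and Il4 and Il13 had 1 and 3 counts over all 6.

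Receptor genes were higher in 5 and lower in 9 of 23 tested members of 30 (60.9% called against 45.1% of all tested genes), with a median of -0.033. Il21r and Il15ra, receptor chains of cytokines of the gamma-c family, fell by 1.19 and 1.21 on the log2 scale, and Il7r fell by 0.67. Ifngr1, the ligand-binding chain of the interferon gamma receptor, rose by 0.51. Of the 4 kinase genes, Jak2 fell from 668 ± 5.23 to 568 ± 17.8 CPM (SD, n = 3; log2 fold change -0.23, edgeR adjusted p = 3.42e-11). Tyk2 rose by 0.082, a call that was lost under upper quartile scaling (edgeR adjusted p = 0.0968) and without thrombocytopenic replicate 3 (0.097), control replicate 1 (0.0912) or control replicate 3 (0.114). Jak1 and Jak3 were at -0.017 and 0.084 and did not pass.

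Other negative regulators of the pathway were higher in 7 and lower in 2 of 16 members, with a median of 0.064. The 56.25% called is near the 45.1% of all tested genes. By direction, the 7 higher and 2 lower of 16 stand beside 22.4% higher and 22.7% lower of all tested genes. That split was not tested. Ptpn6 rose from 494 ± 1.99 to 661 ± 2.47 CPM (SD, n = 3; log2 fold change 0.42, SE 0.025, edgeR adjusted p = 4.49e-21). Ptpn1, which encodes a phosphatase of JAK2 and TYK2, rose by 0.22, and Ptprc, the gene of the CD45 phosphatase, by 0.21. The lower members were Usp18, an interferon-induced inhibitor of the type I interferon receptor, at -0.24, and Socs7 at -0.18. The remaining SOCS genes, chosen after their values were seen, were split, with Socs4 at 0.11 and Socs5 at 0.36 higher and Socs6 at -0.13 not past the threshold.

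Known target genes were described by STAT factor, and some of them are also targets of other factors. Their counts stand beside 22.4% higher and 22.7% lower among all tested genes, 45.1% in all. Of 24 interferon-induced genes that STAT2 serves, 23 were lower and none higher, with Irf9 as the exception, and the median was -0.31 (95.8% called). Rsad2 and Ifit2, both antiviral, fell by 0.82 and 0.80 on the log2 scale, Cmpk2 by 0.64 and Ifit3, which has a near copy and is uncertain, by 0.64. Ifnb1, a type I interferon gene in the ligand list, went the other way. It rose by 0.63 (edgeR adjusted p = 0.000349), from a mean of 2.63 CPM in the control to 4.04 CPM in the thrombocytopenic libraries. Ifnb1 was named after seeing its values, and its link to these targets was not tested. The STAT3 target list moved in both directions, with 12 of 23 higher, 7 lower (82.6% called) and a median of 0.14. The acute-phase genes Saa3 and Hp rose by 0.75 and 0.83, while Vegfa, a growth factor of blood vessels, fell by 2.63 and Fos, an AP-1 subunit, by 0.69.

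STAT5 targets were higher in 3 and lower in 9 of 12 (all called, against 45.1% of all tested genes), with a median of -0.64. Of the members tied to STAT5, the low-count Socs2 was lower, while Stat5a and Cish were not called. A link to the targets was not tested. The higher genes were the kinase genes Pim2 (1.11) and Pim1 (0.26) and the cell cycle inhibitor gene Cdkn1a (0.45). Cd24a, a surface glycoprotein gene, fell by 1.43 and Bcl2l1, the gene of the survival factor BCL-XL, by 0.94. For STAT6, 5 of 16 tested targets of 20 were higher and 9 lower (87.5% called), with a median of -0.37. Ch25h, cholesterol 25-hydroxylase, fell by 1.62, Slc7a2, an arginine transporter gene, by 0.61, Il4i1 by 0.41 and Tgm2, transglutaminase 2, by 0.34. STAT4 targets were higher in 3 and lower in 3 of 7 tested members of 10 (85.7% called), with a median of 0.17. Furin, a protein-cleaving enzyme gene, fell by 1.22 and Gadd45g by 0.60, while Hlx and Map3k8 rose by 0.82 and 0.31. Tbx21, a defining STAT4 target of T and NK cells and named after seeing its values, had no count in any library.

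**Figure D5:**
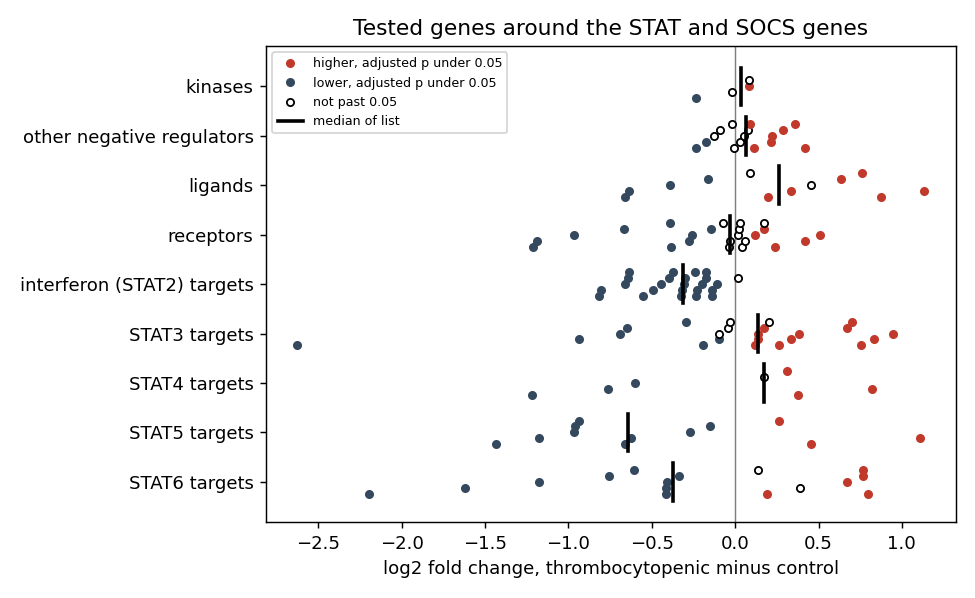
Log2 fold change (horizontal axis, thrombocytopenic minus control) of each tested gene in 9 lists around the STAT and SOCS genes, with red for higher, dark blue for lower, open points for genes not past an adjusted p of 0.05, and a bar at the median of each list. The interferon targets lie to the left with 23 of 24 lower, while the STAT3 targets spread on both sides.

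Over the 6 libraries, the genes whose log2 CPM ran most closely with Stat4 were Ifi207 (Pearson r = 0.996), Cirbp (0.994) and Supt7l (0.991). Closest to Socs2 were Bub1 (0.999), Cdca2 (0.997) and Espl1 (0.997), all known for their part in mitosis. Closest to Socs3, which was added after its values were seen, were Fyb (0.999), Camk2d (0.998) and Akr1b8 (0.998). Many other genes ran closely with each of them: 163 tested genes (1.31%) reached an r of 0.95 with Stat4, 932 (7.46%) with Socs2 and 1049 (8.40%) with Socs3. The correlations are descriptions over 6 points that fall into 2 groups and share the same libraries.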

How the data were processed

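RNA of 6 monocyte libraries was read as raw counts per gene, deposited by the authors as whole numbers in 1 file per library. Per the labels' protocols, libraries were made from oligo-dT purified RNA with a stranded TruSeq kit. The tools named in the submitters' processing notes are STAR 2.7.9a, fastp 0.23.1, Salmon 1.5.2, featureCounts and Subread 2.0.1. Their roles, the genome build, the annotation and the use of strand in counting are not stated there.

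Counts were compared with edgeR 4.0.16 in R 4.3.3 (filterByExpr with a minimum count of 10 and minimum total of 15, TMM, two-sided robust quasi-likelihood test with group alone in the model). P-values were adjusted by Benjamini-Hochberg over all 12488 genes tested, with a threshold of 0.05. Standard errors were derived from the F statistic (size of the log2 fold change over the root of F). CPM are scaled by TMM, and marker sums by library totals. Correlations used log2 of CPM plus 0.5. The floor of 3 counts covers counting error only. The steps were tested on simulated data.

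The members, the gene lists and the tests were chosen with earlier results of these data known. From each pathway list, the 4 tested genes of smallest p are named. Apart from Socs7 and Pim1, any others are marked where they appear or are the only exceptions in a count. Socs7 and Pim1 were named to complete the smaller direction of their lists. The lists cover kinases, negative regulators, ligands, receptors and targets of each STAT, and markers of monocytes, platelets, neutrophils, basophils and mast cells, dendritic, B, and T and NK cells. Alternatives were scaling by RLE, upper quartile or library totals, tests by limma-voom (limma 3.58.1) and DESeq2 1.42.0, 2 other filters, a fit without the robust option, a stricter threshold of 0.01, a replicate block and leaving out each library.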

Additional observations from a re-analysis of the deposited data

How the results depend on the processing

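Under 15 alternatives for each gene, 7 of the 9 genes kept their direction and their side of the threshold. Stat6 passed under upper quartile scaling (log2 fold change -0.087) and on library totals (-0.069), and Cish passed without control replicate 1, ranging from -0.55 to -0.16 when each library was left out. The cause was not tested. Socs3 ranged from 0.43 to 0.47 over its alternatives, Stat2 from -0.20 to -0.17, Stat4 from -0.78 to -0.57, Socs1 from -0.25 to -0.17 and Socs2 from -1.32 to -1.10. Called members numbered 5 or 6 in every setting, and between 4411 (DESeq2) and 5645 (RLE) genes were called in all. Of the 4 kinase genes, 2 were called, and 1 under upper quartile scaling, with 1 to 2 when a library was left out. Of 540 values of 36 named pathway genes, 536 kept their direction and side, and 4, all of Tyk2, were no longer past the threshold. The difference of summed markers without genes above 10 CPM in both groups, an alternative added after the data were seen, was -3.90 CPM for B cells and -6.19 for dendritic cells (-1.61 and -87.1 with all genes). It turned direction for neutrophils, to -3.34 from 121 CPM, and for platelets, to -8.40 from 213 CPM. Replicate numbers did not pair the libraries: same-numbered libraries correlated at -0.044, -0.12 and -0.030 in their deviations from the group means, and no library correlated best with its own number. With the replicate block, 5402 genes and 5 of the 9 members were called. Depth limits Stat4, Socs2 and Cish, whose counts lay between 16 and 101 per library.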
